A study of Mus musculus with 4 samples.

Results

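The semaphorins, plexins and neuropilins are the 20 ligands and 11 receptors of 1 guidance system, and their transcripts were measured in mouse C2C12 myoblasts 48 hours after transient transfection with an siRNA against exon 14 of Fxr1 (siFxr1) or with a control siRNA of random sequence (siControl). Members were taken as every probe that the array's own annotation names for one of these genes, which gave 41 of the 55681 probes that are not controls and 31 of 23588 named genes. C2C12 is an established line of myoblasts that can be differentiated into myotubes, and all 4 samples came from it. Each condition had 2 samples, numbered by experiment, with both conditions of an experiment on the same slide. Total RNA labelled with Cy3 was hybridised to 1-colour Agilent arrays, and a value below is the log2 of the background-corrected intensity after quantile normalization, called the log2 signal. Differences are siFxr1 minus siControl unless said otherwise, so that 1 on this scale is a 2-fold difference.

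Semaphorins are secreted, transmembrane or lipid-anchored proteins that share a sema domain and were first known as cues that steer growing axons. Plexins are their main receptors, and act through small GTPases on the actin cytoskeleton and on integrin adhesion. Secreted class 3 semaphorins mostly need a neuropilin as the binding partner of a plexin, whereas most transmembrane classes bind plexins directly. In skeletal muscle, semaphorins are made by satellite cells, their myoblasts and the fibres themselves, where class 3 members act on motor nerve endings and on vessels.

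The probes that the results turn on are each 60 bases long, and their first 30 bases are given 5′ to 3′ to show which transcript was read. Positions are those of the array's annotation on mm9, and whether they lie in coding or untranslated exons was not determined here.
Sema7a, A_52_P410765, NM_011352, chr9:57810607-57810666, plus strand: tcccttatctcttctcaatgcactttaata
Sema4d, A_55_P2103011, NM_013660, chr13:51796617-51796676, minus strand: tttctacttggaactgtacacatttgaaaa
Plxnc1, A_52_P507498, NM_018797, chr10:94253879-94253938, minus strand: ggatcccattagccaaatgcacagaatgtc
Plxnc1, A_52_P299832, NM_018797, chr10:94257387-94257446, minus strand: atgccaaggatataccaacctacaaagagg
Nrp2, A_52_P93910, NM_001077403, chr1:62865129-62865188, plus strand: tgagccagatcacgggaactcgagagcttt
Nrp2, A_65_P15245, NM_001077406, chr1:62843298-62843357, plus strand: ggtttctgttggctgtcattgtcatctcca
The pair for Nrp2 reads transcripts with different accessions, and both were bright enough to compare. The pair for Plxnc1 is shown because neither gave a signal above background.

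The targeted gene was lower in both siFxr1 samples. The brighter Fxr1 probe, A_51_P372463, had log2 signals of 10.15 and 10.77 in siFxr1 and 13.85 and 13.71 in siControl, and the difference was -3.31 (SE 0.29, limma adjusted p = 0.950). On these arrays 45.4% to 52.9% of the probes were well above background by the scanner software's mark, and no spot was saturated. The number of arrays sets the precision, since a comparison of 2 with 2 cannot give an exact permutation p below 0.333. The labels give the experiment as the only separation between replicates, so errors and p-values cover the spread between these experiments. The SE of a difference between conditions is from the fit of the condition alone. It thus includes any shift between the experiments that both conditions share. Of the myoblast markers, Myod1, Des, Pax7, Cdh15 and Ncam1 carried this mark on all 4 arrays, whereas Myf5 carried it on 0.

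A gene was taken as measured where its brightest probe carried that mark on both arrays of siFxr1, of siControl or of both, and 26 of the 31 members were, 17 of 20 semaphorins and 9 of 11 receptors. Sema4f, Sema4g, Sema5b and Plxnc1 were well above background on 0 arrays, and Plxna4 on 1 array of each condition. Of the 26, all but Sema3g and Sema4d carried it on all 4 arrays. Those 2 carried it on 2 siFxr1 arrays and 1 siControl array. They thus counted as measured through siFxr1 alone, the condition in which they were higher. Signal was thus seen for ligands of every class from 3 to 7 and for A, B and D plexins. The levels are those of whole cultures, in which fewer cells making a transcript and less transcript per cell cannot be told apart.

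**Figure D1:**
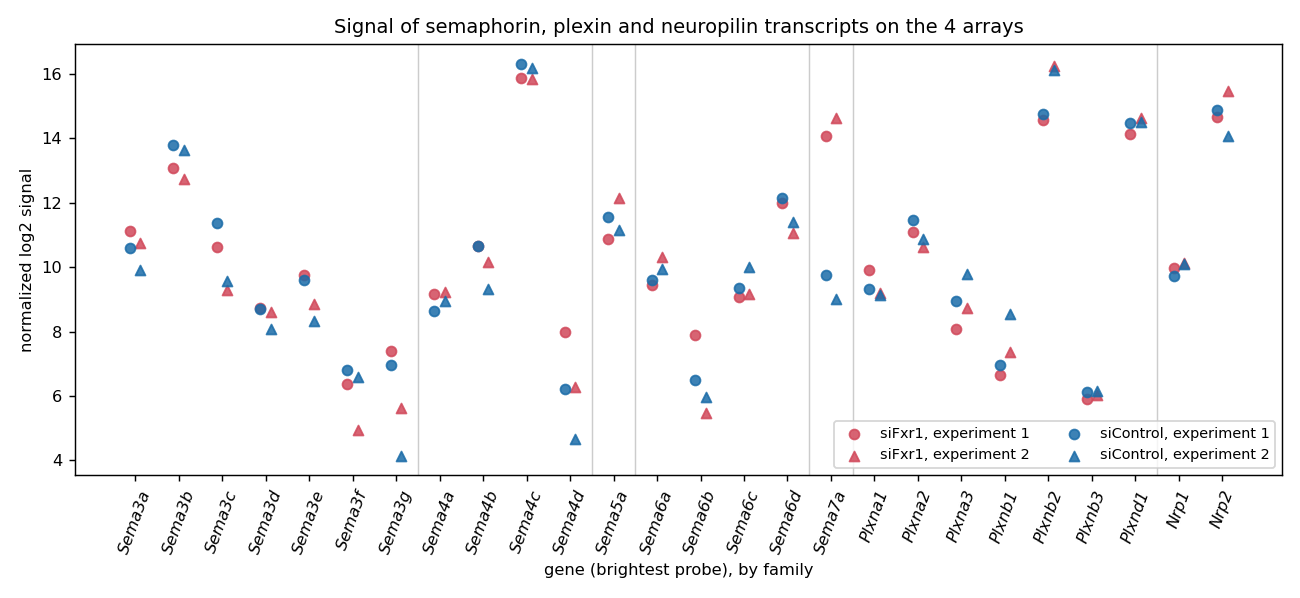
Normalized log2 signal of the brightest probe of each of the 26 measured members, grouped by family, with 1 point per array (red siFxr1, blue siControl, circles experiment 1, triangles experiment 2). The red and blue points of Sema7a are far apart, from 14.07 to 14.64 against 9.00 to 9.77, while the points of the other members lie closer together by condition.

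Sema7a stood apart from every other member. It encodes the only class 7 semaphorin, a protein held on the membrane by a glycosylphosphatidylinositol anchor that binds plexin C1 and integrins with a beta 1 chain. Its log2 signal was 14.07 and 14.64 in siFxr1 and 9.77 and 9.00 in siControl, well above background on all 4 arrays. Both siFxr1 samples were thus far above both siControl samples, with no overlap. The difference was 4.97 (SE 0.40), or 31.4-fold, and it was 19.8-fold within experiment 1 and 49.9-fold within experiment 2. Among the 14317 genes measured, its difference was the second largest in the direction of siFxr1, and it was the tenth by unadjusted p.

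The limma fit of the condition alone over all 55681 probes gave Sema7a an unadjusted p of 0.00075, an adjusted p of 0.950 and a B value of -4.33. B is the log odds of a difference, and a call needed B above 0 or an adjusted p under 0.05. That fit called 0 probes, a percentage of 0, with 2764 probes at an unadjusted p under 0.05. The experiment as a block alone left the adjusted p of Sema7a at 0.535 and also called 0 probes. With the block and dim probes left out, Sema7a was called with a B of 4.11 and a limma adjusted p of 0.0146, against a background of 0.826% of probes called higher. A fit that took the 4 possible ratios between an siFxr1 and an siControl array as observations gave a B of 3.43, where 1.03% of all probes were called higher, but these ratios share arrays and so understate the error.

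Sema4d was the other member at least 2-fold higher in siFxr1 in both experiments. This transmembrane class 4 ligand signals through plexin B1 and, in immune cells, through CD72. Its log2 signal was 7.99 and 6.29 in siFxr1 and 6.23 and 4.66 in siControl. The conditions only just did not overlap, as the siFxr1 sample of experiment 2 had 6.29 against 6.23 in the siControl sample of experiment 1. Within an experiment the differences were alike, 1.77 and 1.63, and the mean difference was 1.70 (SE 0.92, limma adjusted p = 0.975). With the experiment as a block and dim probes left out, B was 0.865 and the limma adjusted p 0.0440. The probe was dim, and it was not well above background in the siControl sample of experiment 2. It thus passed the filter on dim probes through siFxr1 alone, the condition in which it was higher, so the call in that fit is no support for the difference. Its size also depended on the background correction, at 0.83 with normexp and 0.79 with none.

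Among the 26 measured members, 2 were thus at least 2-fold higher in siFxr1 in both experiments and 0 at least 2-fold lower, where 2.21% and 1.47% of all measured genes were. The limma fit of the condition alone called 0 of them, and 2, Sema7a and Sema3b, had an unadjusted p under 0.05, a share near that of all measured genes, 7.56%. With the experiment as a block, 5 had one, Sema3a, Sema3b, Sema4d, Sema7a and Plxna3, where 12.8% of all measured genes had. The conditions did not overlap in 4 members that were higher in siFxr1 and in 6 that were lower, against 17.3% and 15.8% of all measured genes. The 2 differences within experiments had the same direction in 9 members that were higher and 10 that were lower, or 19 of 26, where 66.5% of all measured genes had it. The median difference was 0.13, beside 0.02 over all measured genes, but it was -0.17 within experiment 1 and 0.10 within experiment 2. In the mean, 23 of the 26 differed by less than 2-fold, as did 13240 of the 14317 measured genes. Sema4d was among the 2 that were 2-fold higher, the 4 higher without overlap and the 5 in the fit with the block. Both Sema4d and Sema3g were among the 9 higher in both experiments. As they counted as measured through siFxr1 alone, their places in these counts are no support for a difference.

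**Figure D2:**
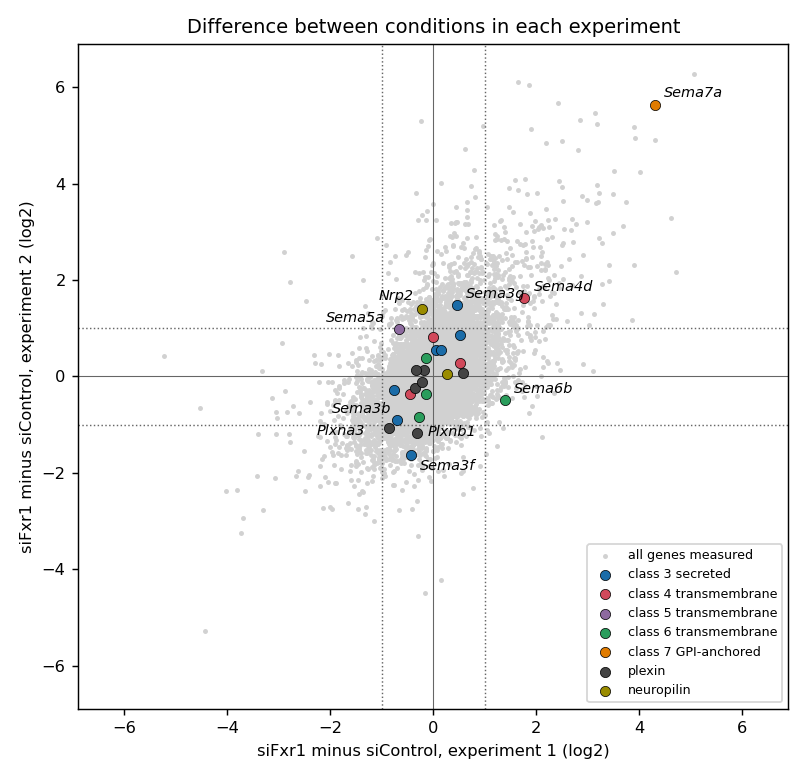
Difference between siFxr1 and siControl on the log2 scale in experiment 1 (x axis) and in experiment 2 (y axis), with grey points for the 14317 measured genes and coloured points for the 26 members by family. Dotted lines mark 2-fold. Sema7a lies at 4.30 and 5.64, Sema4d at 1.77 and 1.63, and the other members lie within 2-fold on at least 1 axis.

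The 7 class 3 genes, the secreted ligands, were all measured. By their brightest probes they went both ways, with 4 higher and 3 lower in siFxr1 in both experiments. Of the 4, Sema3g counted as measured through siFxr1 alone, so its place among them is no support for a difference. Sema3b, best known as a growth suppressor lost in tumours, was lower in siFxr1. It had log2 signals of 13.09 and 12.74 in siFxr1 and 13.81 and 13.65 in siControl, a difference of -0.81 (SE 0.21). The siFxr1 samples lay below both siControl samples, and the difference exceeded the SD within siFxr1, 0.25, and within siControl, 0.11. It had the second lowest unadjusted p of the members, 0.0268, and a limma adjusted p of 0.967.

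Sema3f, which signals through neuropilin 2, had signals of 6.36 and 4.95 in siFxr1 and 6.80 and 6.59 in siControl, a difference of -1.04 (SE 0.58). It also lay lower in both siFxr1 samples, but with differences of -0.44 in experiment 1 and -1.64 in experiment 2, so its size rested on the siFxr1 array of experiment 2 and was -0.34 without it. Sema3a, the prototype axon repellent that acts through neuropilin 1 and is made by satellite cells after muscle injury, had 11.13 and 10.77 in siFxr1 and 10.61 and 9.90 in siControl. Its siFxr1 samples were both above the siControl samples, by 0.69 (SE 0.34), and a second probe differed by 0.23. Sema3g, a ligand of neuropilin 2, had 7.41 and 5.63 in siFxr1 and 6.96 and 4.15 in siControl, with a difference of 0.97 (SE 1.31). Here the conditions overlapped and the experiments stood further apart than the conditions did. Of the other class 3 genes, Sema3c had -0.53, Sema3d 0.30 and Sema3e 0.34, with overlap in each. The second probe of Sema3c had -0.11, with -0.47 in experiment 1 and 0.26 in experiment 2.

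In class 4, 4 of 6 genes were measured. Beside Sema4d, Sema4a, a ligand known for its part in T cell activation, was higher in siFxr1 without overlap, by 0.39 (SE 0.19). Sema4c, a ligand of plexin B2 that is made by myogenic cells, had log2 signals of 15.87 and 15.84 in siFxr1 and 16.33 and 16.19 in siControl. It was lower in siFxr1 without overlap by 0.41 (log2 difference -0.41, SE 0.16), or 1.33-fold. Sema4b differed by 0.40 in the mean, by -0.01 in experiment 1 and 0.82 in experiment 2.

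Classes 5 and 6 showed no common direction. Sema5a, which carries thrombospondin repeats, was lower in siFxr1 in experiment 1 by 0.68 (difference -0.68) and higher in experiment 2 by 0.99. Sema6b was higher by 1.39 in experiment 1 and had a difference of -0.49 in experiment 2. Sema6a and Sema6d, transmembrane ligands of A plexins, differed by 0.11 and -0.25. Sema6c had -0.55 (SE 0.29), with both siFxr1 samples below both siControl samples, and a probe without a gene symbol that the annotation describes as semaphorin 6C had -0.74 (SE 0.30). These class 5 and 6 values were each smaller than 2-fold in the mean.

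**Figure D3:**
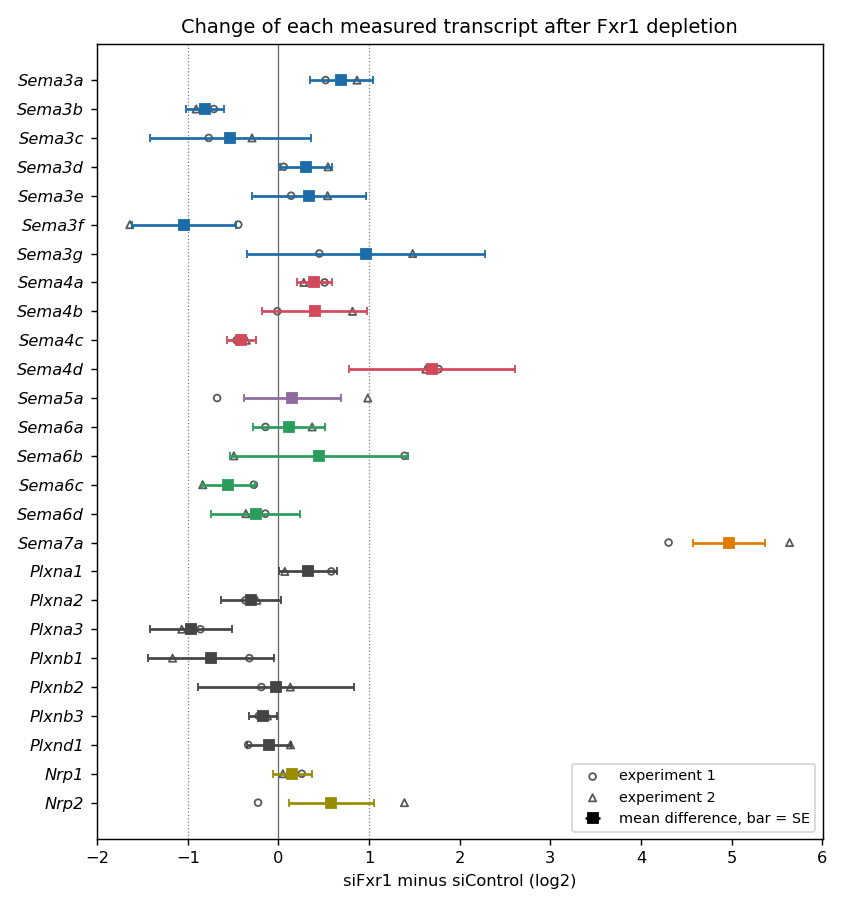
Mean difference between siFxr1 and siControl (log2, squares) with its limma standard error (bars, 2 arrays per condition) and the difference within each experiment (open circles experiment 1, open triangles experiment 2) for the 26 measured members. The errors are from the fit of the condition alone and include shifts between the experiments. Sema7a stands at 4.97 and the squares other than those of Sema7a and Sema4d lie between -1.04 and 0.97. Sema4d stands at 1.70 with a wide error of 0.92, which was 0.20 with the experiment as a block.

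The receptors differed less than the ligands did at their extremes, from -0.96 to 0.58 over the 9 measured, and 0 of them were 2-fold apart in both experiments. Plexin C1, the plexin that binds Sema7a, was not seen. Its probe A_52_P507498 had log2 signals of 3.47 and 3.13 in siFxr1 and 3.33 and 3.05 in siControl, and A_52_P299832 had 2.56 to 2.71 over the 4 arrays. A further probe described as similar to plexin C1 had 2.64 to 2.68. None of the 3 was well above background on any array, so no direction is given for this receptor.

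Among the A plexins, the partners of neuropilins, Plxna3 was the lower one. Its log2 signal was 8.08 and 8.73 in siFxr1 and 8.94 and 9.80 in siControl, a difference of -0.96 (SE 0.45). Each siFxr1 sample lay below each siControl sample, by 0.86 within experiment 1 and 1.07 within experiment 2 (differences -0.86 and -1.07). Plxna1 differed by 0.33 and Plxna2 by -0.30, with overlap between the conditions in both.

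Of the B plexins, which bind class 4 ligands, Plxnb1 had 6.64 and 7.37 in siFxr1 and 6.96 and 8.54 in siControl. Its difference was -0.74 (SE 0.70), larger in experiment 2 at -1.17 than in experiment 1 at -0.32, and the conditions overlapped. Plxnb2, the receptor of Sema4c, had a difference of -0.03 (SE 0.86), and Plxnb3 one of -0.17 (SE 0.15). The class D receptor Plxnd1, which binds Sema3e without a neuropilin, had signals from 14.14 to 14.63 and a difference of -0.10 (SE 0.24).

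Nrp1, the neuropilin of Sema3a and a co-receptor of vascular endothelial growth factor, had log2 signals of 9.99 and 10.14 in siFxr1 and 9.73 and 10.09 in siControl. The difference was 0.15 (SE 0.21) and the conditions overlapped. Nrp2, the neuropilin of Sema3f, had 14.67 and 15.47 in siFxr1 and 14.90 and 14.08 in siControl by its brighter probe. That difference was 0.58 (SE 0.47), but it was -0.23 in experiment 1 and 1.39 in experiment 2. The second probe, for the transcript NM_001077406, had 11.78 and 12.75 in siFxr1 and 12.02 and 12.80 in siControl, a difference of -0.15 (SE 0.51). The probes of Nrp2 thus differed in direction in experiment 2 and had the same one in experiment 1. For Sema3a, Sema3b, Sema3f, Sema3g, Plxna3, Plxnb1, Plxnc1, Nrp1 and the brighter probe of Nrp2, the limma adjusted p lay between 0.967 and 0.976.

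Of the 10 members with 2 probes each, 5 had both probes measured, Sema3a, Sema3c, Sema3g, Plxnd1 and Nrp2. The probes of a gene had the same direction of the mean difference in 4 of these 5. Sema7a and Sema4d each rested on 1 probe.

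In 15 of 26 members, the mean difference between the experiments exceeded that between the conditions, a share near that of all measured genes, 61.1%. By their brightest probes, all 7 class 3 genes were higher in experiment 1 in both conditions, as were 42% of all measured genes. The second probe of Sema3a went the other way, with -0.53 in siFxr1 and -0.18 in siControl (experiment 1 minus experiment 2). Those of Sema3c and Sema3g were higher in experiment 1 in both conditions. Of the 7 measured plexins 5 were higher in experiment 2 in both, as were 32.7% of all measured genes. Among these 5, Plxnb3 (-0.006) and the brighter probe of Plxnd1 (-0.03) hardly differed between the experiments in siControl. The second probe of Plxnd1 did differ, with -1.14 in siFxr1 and -1.50 in siControl. The difference between the families was not tested. Over all members 14 were higher in experiment 1 in both conditions, 9 were higher in experiment 2 and 3 went opposite ways. Nrp2 was among these 3 by its brighter probe, while its second probe had -0.97 in siFxr1 and -0.78 in siControl. By the brightest probe of each gene, the experiments differed by at least 2-fold in the same direction in both conditions for 4 members. Sema3c, Sema3g and Sema4d were higher in experiment 1, and Plxnb2 in experiment 2. These 4 of 26 compare with 8.04% of all measured genes.

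Plxnb2 had 14.58 and 14.77 in the siFxr1 and siControl samples of experiment 1 and 16.25 and 16.12 in those of experiment 2. The experiments did not overlap, and differed by -1.51 (SE 0.21, experiment 1 minus experiment 2). Sema3g differed by 2.30 (SE 0.35), Sema4d by 1.63 (SE 0.20) and Sema3c by 1.56 (SE 0.24) between the experiments. A limma fit with condition and experiment called 0 members for the experiment, with adjusted p of 0.110 to 0.123 for these 4, while it called 1.19% of all probes. In that fit 8 of 26 members had an unadjusted p under 0.05, where 24.2% of all measured genes had. Another 7 settings called between 2 and 7 of the 31 members, and between 1.78% and 11.5% of all genes. Sema7a differed by 0.10 (SE 0.42) between the experiments.

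Markers of myotubes moved with the experiments too. In both conditions all 9 listed, among them Myog and Acta1, had the higher signal in experiment 1, with a median difference of 2.12 and 8 of them at least 2-fold in both. Their median log2 signal was 15.27 and 15.22 in the siFxr1 and siControl samples of experiment 1 and 13.25 and 13.14 in those of experiment 2. It was thus nearly the same in the conditions of an experiment. The part of differentiation in the differences of the members between the experiments was not tested. Of the 5 leukocyte markers, Csf1r and Itgam were well above background on all 4 arrays, Cd68 on 1 array of each condition, and Ptprc and Emr1 on 0. Itgam was higher in experiment 2, with 13.62 and 13.81 in the siFxr1 and siControl samples against 12.03 and 11.33 in those of experiment 1. Csf1r went the other way, with 11.12 and 10.21 in the siFxr1 and siControl samples of experiment 1 against 10.46 and 9.68. The part of these 2 genes in the differences between the experiments was not tested.

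**Figure D4:**
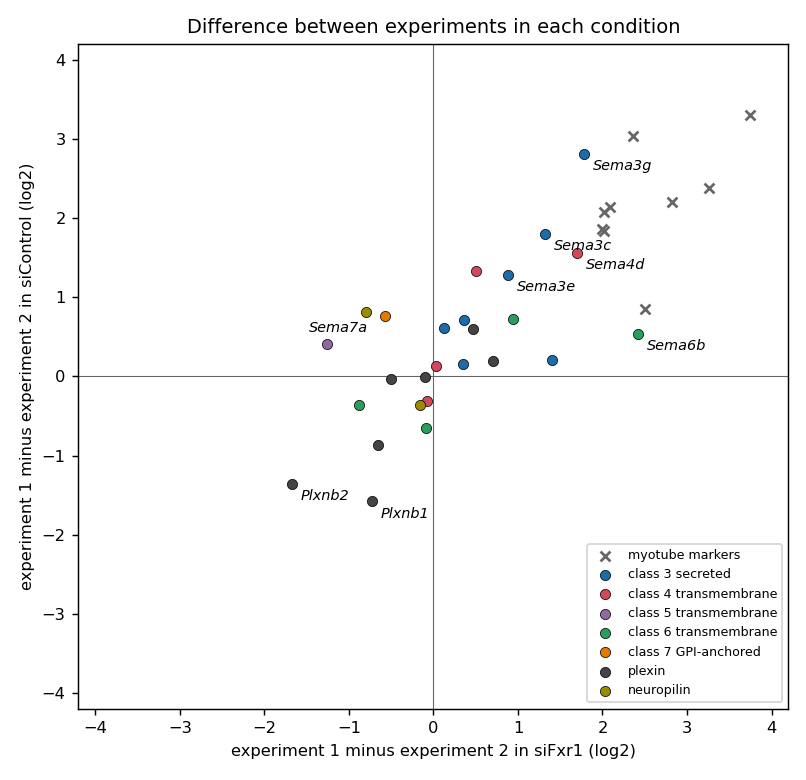
Difference between experiment 1 and experiment 2 on the log2 scale in siFxr1 (x axis) and in siControl (y axis) for the 26 measured members (coloured by family) and 9 myotube markers (crosses). By the brightest probe of each gene, all class 3 genes and all myotube markers lie to the upper right, higher in experiment 1 in both conditions. Plxnb2 lies to the lower left.

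Partners and effectors of the system, a list of 50 co-receptors, integrins, GTPases and kinases, were measured for 40 genes. Of these 1 was at least 2-fold higher in siFxr1 in both experiments and 0 were lower, their median difference was -0.04, and 38 of 40 differed by less than 2-fold. These shares are near those of all measured genes, 2.21% for 2-fold higher. The limma fit called 0 of them, with 3 at an unadjusted p under 0.05, again near the 7.56% of all measured genes. The gene that was 2-fold higher was Rap1a, a small GTPase on which the GTPase-activating domain of plexins acts. Rap1a had log2 signals of 6.99 and 5.86 in siFxr1 and 5.48 and 4.63 in siControl, a difference of 1.37 (SE 0.57, limma adjusted p = 0.975) without overlap. In siControl it was well above background on 1 array, so that it counted as measured through siFxr1 alone.

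Integrin beta 1, part of the integrins through which Sema7a is known to act, was well above background on all 4 arrays. Itgb1 had 13.95 and 14.12 in siFxr1 and 13.22 and 13.79 in siControl, a difference of 0.53 (SE 0.28) without overlap. Itga1, which encodes an alpha chain that pairs with it, was well above background on 1 array of each condition and is given no direction. No other alpha chain was on the list. The fit of the 4 ratios called 1 gene of the list in either direction, where it called 2.9% of all measured genes, and this was Mical1, an oxidase that takes actin filaments apart downstream of plexins. Its log2 signals were 13.62 and 13.53 in siFxr1 and 14.26 and 14.35 in siControl, a difference of -0.73 (SE 0.15).

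The promoter of Sema7a is shown because the difference in this gene exceeds that in the rest of the set. Its 250 bases before the annotated start, from RefSeq on GRCm38.p6, are given with the sequence GGGCGG, the core of the GC box that Sp1 family factors bind, in capitals.
Sema7a promoter, chr9:57939862-57940111, plus strand: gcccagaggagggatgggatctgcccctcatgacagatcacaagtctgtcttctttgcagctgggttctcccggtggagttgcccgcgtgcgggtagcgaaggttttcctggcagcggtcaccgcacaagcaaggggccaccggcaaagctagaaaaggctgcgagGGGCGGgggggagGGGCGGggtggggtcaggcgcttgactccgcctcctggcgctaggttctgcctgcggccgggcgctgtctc
Motifs were searched on both strands of these 250 bases in 32851 promoters of the table, which held 37 promoters for 26 members. GGGCGG was present in 27 of the 37 (73%) and in 32.7% of all promoters, and Sema7a had 2 copies that did not overlap, at positions -84 and -71 from the start. TATAAA was in 0 of the 37 and in 12.4% of all, and was absent from that of Sema7a. CANNTG, the E-box read by myogenic factors such as MyoD, was in 19 of the 37 (51.4%) and in 66.2% of all, with 1 match in Sema7a. TGANTCA, the AP-1 site, was in 3 of the 37 (8.11%) and in 6.75% of all, and CCGGAAG, an ETS site, in 1 (2.7%) and in 6.91%, and Sema7a had neither. A match is a run of letters and no measured binding, and genes can have several promoters in the table.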

How the data were processed

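RNA of C2C12 myoblasts was measured on 4 arrays, 2 each of siFxr1 and siControl, and samples were grouped by their labels. The authors deposited the intensity of each spot from Agilent Feature Extraction 10.7.3.1, detrended and background-corrected within the array, and a table of intensities normalized between arrays, used only as an alternative. The tools named in the submitters' processing notes include limma. Deposited intensities, on a log2 scale, were quantile-normalized over the 59305 spots of probes other than controls, outlier spots were then dropped and the spots of a probe averaged, in R 4.3.3 with limma 3.58.1. Quantile normalization forces the 4 arrays to share 1 distribution, and log2 values of dim probes depend on the background correction.

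Condition was the only term of the model, as the study's methods name no block. lmFit and eBayes ran over 55681 probes, with Benjamini-Hochberg adjustment over all of them. A probe was called at B above 0 or an adjusted p under 0.05. A probe was well above background where at least 0.5 of its spots were so marked. The brightest probe stood for a gene. Gene names were those of the array that also stand in a RefSeq table as symbol or synonym. The members, lists and tests were chosen with earlier results of these data known.

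Named in full were members at least 2-fold apart in the same direction in both experiments, the 6 other measured members with the largest difference, the neuropilins and Plxnc1, and, of the partners, those at least 2-fold apart in both experiments. Mical1, Itgb1, Itga1 and the remaining members were named with their values seen. The experiment pairs the samples according to the labels, and deviations of same-numbered samples from the condition means correlated at 0.714 over 25523 probes. The fits were tested on simulated data. Alternatives were other scalings and background corrections, the experiment as a block, alone and with dim probes left out or normexp, dim probes left out, the ratios between arrays, a trended variance prior, other probes of a gene, and each array left out.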

Additional observations from a re-analysis of the deposited data

How the results depend on the processing

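Precision was limited by 2 arrays per condition. Sema4d, Sema3f and Sema3g were dim, and the part of dimness in their errors was not tested. With the experiment as a block, the SE was 0.20 for Sema4d against 0.92 without it, and 0.35 against 1.31 for Sema3g. For Sema3f it was 0.39 against 0.58, and for the bright Plxnb2 0.21 against 0.86. For Sema7a it was slightly larger with the block, 0.42 against 0.40. The limma call of members, 0 with the condition alone, was 0 with the experiment as a block, 2 (Sema4d and Sema7a) with the block and dim probes filtered, 1 (Sema7a) with the block and normexp, and 1 (Sema7a) with the 4 ratios, where 0.899%, 1.17% and 2.45% of all genes were called. Sema4d passed the filter through siFxr1 alone. The call of members stayed 0 under the other settings that kept all arrays. The members at least 2-fold apart in both experiments, 2 in the report, were 1 with normexp, with no background correction, with the median minus background, with the authors' normalized table and with normexp and the block, and Sema4d was the member lost. The block, the trend and the ratios leave this count as it is by construction, and it has no value with an array left out. The median difference of 0.13 lay between 0.0953 and 0.133 under the other settings and between -0.0678 and 0.175 with an array left out, and it was lowest without the siControl sample of experiment 2. Members called between the experiments were 0 in the report, where 0.649% of all genes were called. They were 4 with scaling to the 75th percentile (7.82% of all genes), 6 with normexp (8.99%) and 5 with no background correction (8.64%). They were 5 with the median minus background (6.18%) and 7 with the authors' table (11.5%). They were 6 with dim probes filtered (8.19%) and 2 with a trend (1.78%). Shares of all genes are over 23588 genes, of which 14317 were measured, beside 26 of the 31 members. Where dim probes were filtered, the rest could not be called. These shares are thus low beside a set that was mostly measured. The counts with the 75th percentile and with the median minus background include Sema4g, which was well above background on 0 arrays. The causes of the differences between settings were not tested.

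For the members named with full values, 121 of 123 differences kept their direction under settings that left out no array. The others were the second probe of Nrp2 (-0.15) and of Plxnc1 (-0.0861), while those of Sema3a (0.23) and Sema3g (0.30) kept it. The 123 include values of Plxnc1, which was well above background on 0 arrays, so no direction is read from them. Many of the 123 could not change. The block, the filter on dim probes, the ratios and the trend leave a difference as it is by construction, and normexp with the block repeats normexp. With an array left out, a lone sample is assumed to vary like the other condition. Differences then ran from 4.59 to 5.36 for Sema7a, 0.85 to 2.55 for Sema4d, -1.75 to -0.34 for Sema3f, -0.44 to 2.37 for Sema3g, -0.99 to -0.63 for Sema3b, 0.34 to 1.05 for Sema3a, -1.40 to -0.53 for Plxna3, -1.53 to 0.0445 for Plxnb1, -0.0286 to 0.33 for Nrp1, 0.18 to 0.99 for Nrp2 and -0.0582 to 0.27 for Plxnc1. Sema3g (-0.44), Plxnb1 (0.0445) and Plxnc1 (-0.0318) changed sign without the siControl sample of experiment 2, and Nrp1 (-0.0286) without that of experiment 1. Plxnc1 (-0.0582) also did without the siFxr1 sample of experiment 1.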

Other observations

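Other guidance families were read by count. Of 22 netrin, Slit and receptor genes, 21 were on the array and 13 were measured, and 0 of these were at least 2-fold apart in the same direction in both experiments. All 22 ephrin and Eph genes were on the array and 19 were measured, of which 2 were at least 2-fold higher in siFxr1 in both experiments, Efnb2 and Ephb1. Efnb2, a transmembrane ligand of EphB receptors, had log2 signals of 11.78 and 12.13 in siFxr1 and 10.41 and 10.73 in siControl, a difference of 1.38 (SE 0.24). Ephb1, a receptor of the B class, had 8.61 and 6.93 in siFxr1 and 7.51 and 5.42 in siControl, a difference of 1.31 (SE 1.06) with overlap. Both genes were named after their values were seen. The limma fit called 0 genes of either family, with 2 netrin and Slit genes and 1 ephrin gene at an unadjusted p under 0.05, and the fit of the 4 ratios called 1 gene of each, Robo2 and Efnb2. Over all measured genes, 7.56% had such a p and 2.9% were called from the ratios. Medians of the difference over the measured genes were 0.03 for netrins and Slits and 0.15 for ephrins.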
